A study of Mustela putorius furo and Mus musculus with 4 samples.

Results

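The genes described here are 9 core genes of the mTOR growth control pathway: Akt1, Tsc1, Tsc2, Rheb, Mtor, Rptor, Rictor, Rps6kb1 and Eif4ebp1. They were chosen by name, without regard to case, and all 9 occurred once in each of the 4 libraries, among 13373 gene symbols shared by the ferret and the mouse values. The libraries were made from primary astrocytes of the cerebral cortex of postnatal day 1 ferrets (Mustela putorius furo, 2 libraries) and of ICR mice of postnatal day 1 to 3 (2 libraries). No gene was altered and no drug was given in either species. Cells of both species grew as mixed glia for 14 days in medium with fetal bovine serum, were shaken and replated, and were then moved to serum-free medium with heparin-binding EGF-like growth factor before RNA was taken. Such cultures are not freshly isolated astrocytes, and serum exposure precedes the measurement in both species. Libraries were made in duplicate, and whether the duplicates came from separate cultures or animals is not given in the sources used here. The p-values thus rest on the spread between duplicates in these 4 libraries, which may be technical. For each gene, the test also draws this spread towards that of the other genes tested.

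mTOR is a protein kinase that adjusts protein synthesis, and with it cell growth and size, to growth factors, amino acids and energy. It works in 2 complexes. Complex 1 contains Raptor and acts on S6 kinase and on the eIF4E-binding proteins, and complex 2 contains Rictor and phosphorylates AKT. Growth factor receptors act through PI3 kinase and AKT, which restrains the TSC1-TSC2 complex. That complex switches off Rheb, the small GTPase that activates complex 1. In astrocytes and their progenitors, loss of TSC1 or TSC2 is known to raise complex 1 activity and to enlarge the cells. Astrocyte size was among the features that the study compared between the species. In culture with serum, it found that ferret astrocytes had smaller cell bodies but longer processes with more branches. In the cortex, it found that ferret astrocytes were larger than those of the mouse. The RNA came from cultures in serum-free medium. The question here is how the transcripts of this pathway differed. Most of its control is exerted on proteins by phosphorylation, which transcript levels do not show.

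The 9 genes fell into groups of 5 and 4. Akt1, Tsc1, Mtor, Rptor and Rps6kb1 were higher in ferret astrocytes, by 1.28-fold to 1.86-fold in mean FPKM. Tsc2, Rheb, Rictor and Eif4ebp1 were lower in ferret astrocytes, with mouse means 1.77-fold to 4.29-fold above the ferret means. FPKM, the deposited unit, counts fragments per kilobase of exon and scales them to the fragments mapped in the library. Partners thus lay on opposite sides within the TSC complex (Tsc1 against Tsc2) and within complex 2 (Mtor against Rictor). Mtor and Rptor of complex 1 lay on the same side. For each of the 9 genes the 2 ferret values lay on one side of the 2 mouse values, as they did for 94.1% of all genes tested (ferret higher in 35.1% and lower in 59.0%).

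**Figure D1:**
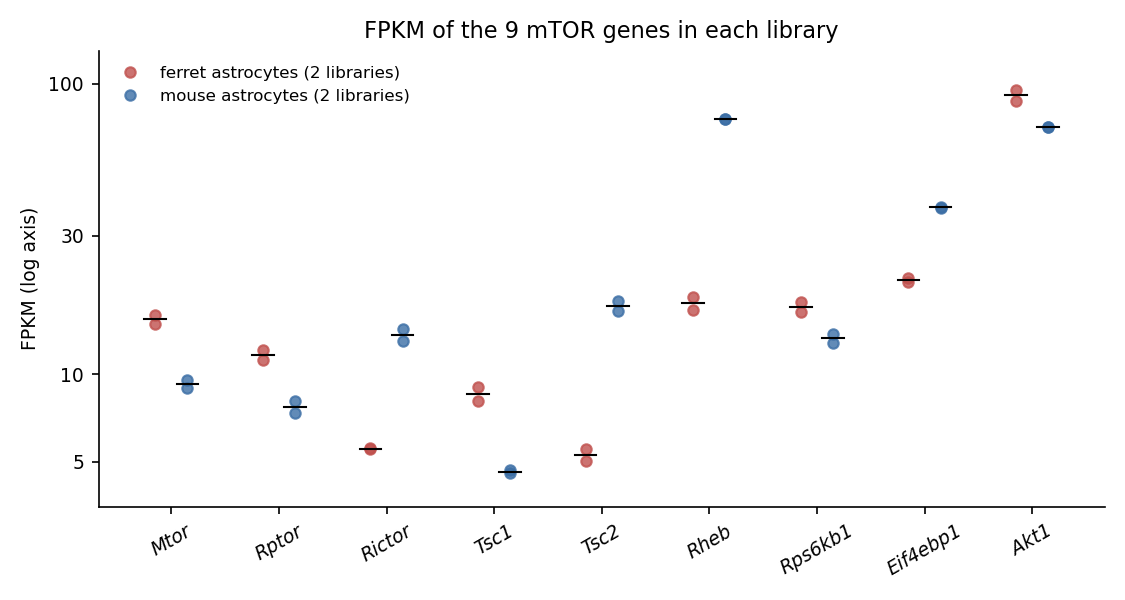
FPKM (log axis) of the 9 genes in each library, with ferret astrocytes in red, mouse astrocytes in blue, a point per library and a black bar at the mean of 2 libraries. Rheb stands apart most, at 16.7 and 18.5 FPKM in ferret and 75.4 and 75.6 in mouse astrocytes.

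All 9 genes differed between the species at an adjusted p under 0.05 by limma on log2(FPKM + 1), with Benjamini-Hochberg adjustment over the 10204 genes tested, as did 88.6% of those genes. Of the 9 genes, 5 were higher in ferret astrocytes, against 32.4% of all genes tested, and 4 were lower, against 56.2%. A gene was called if its absolute log2 difference was also above 1. By this rule 0 of the 9 genes were called higher (13.1% of all genes) and 3 were called lower, namely Rheb, Tsc2 and Rictor (30.1% of all genes). The share of genes called in either direction was 33.3% of the 9 genes and 43.2% of all genes tested. That all 9 genes differed is thus close to the share over the whole table.

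The median log2 difference, ferret minus mouse, was -0.35 over all genes tested and 0.33 over the 9 genes. The deposited values are not scaled between the species. After the values were rescaled to sum to 1000000 over the shared symbols, rescaled to the mean library sum, or quantile normalized, the median of all genes moved to -0.01, -0.01 and 0.05, and the share of calls that were higher in ferret astrocytes moved from 30.3% to 46.4%, 46.9% and 50.0%. All 9 genes kept their direction, at an adjusted p under 0.05 by limma, under each of these 3 scalings. FPKM over the shared symbols summed to 227391 and 236543 in the ferret and to 300465 and 308121 in the mouse libraries. Both rescalings thus raised ferret values relative to mouse values, and only genes lower in ferret astrocytes could have turned under them. The rescalings differ from each other by a constant factor alone, so they are not separate checks. The alternatives other than scaling could not turn any direction, since the ferret and mouse values of each of the 9 genes did not overlap. The calls were less stable. Under each of the 3 scalings Mtor and Tsc1 were called higher in ferret astrocytes and Rictor was no longer called lower. Values relative to the median of all genes are given below beside the log2 differences.

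**Figure D2:**
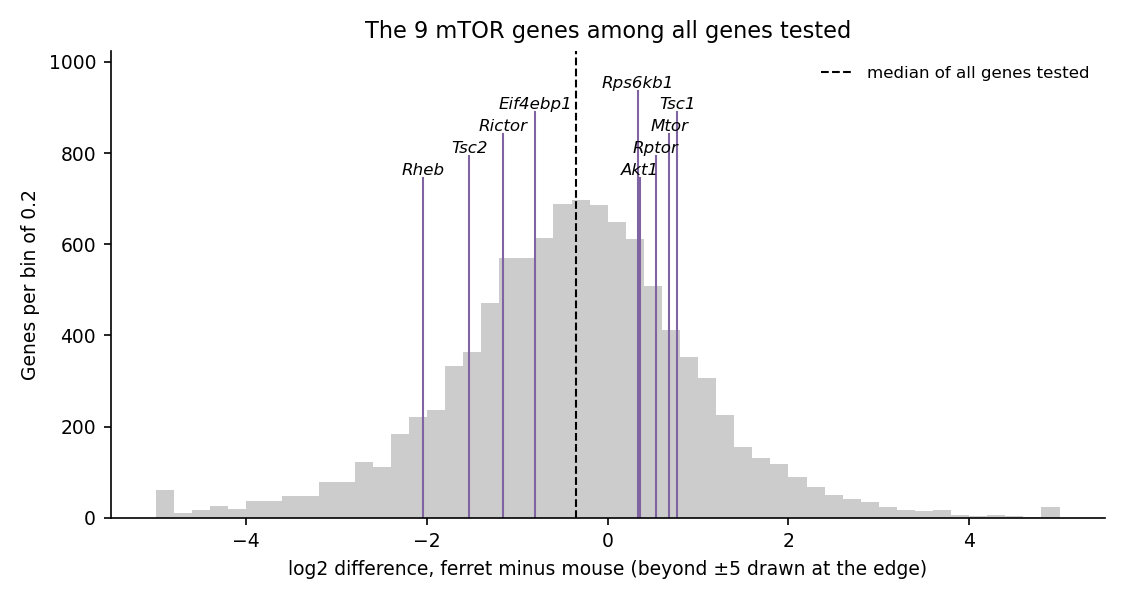
Histogram of the log2 difference of FPKM + 1, ferret minus mouse, over the 10204 genes tested, in bins of 0.2, with a line at each of the 9 genes and a dashed line at the median of -0.35. The lines lie between -2.04 and 0.77, with 5 genes to the right and 4 to the left of the dashed line.

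RNA was taken from whole cultures, so fewer cells of a type and less RNA per cell cannot be told apart in these values. By immunostaining of cultures with serum, the study found that nearly all cells were astrocytes in both species. It counted a small share of microglia, larger in the mouse, and a few neurons in the ferret cultures alone. The serum-free cultures that gave the RNA were not part of that count. All 11 astrocyte markers were above 0 in each library, and their summed FPKM was 4704 and 4898 in the ferret and 10273 and 11054 in the mouse libraries. The sums of the microglial and meningeal fibroblast markers were lower in the ferret than in the mouse libraries. The 10 microglial markers summed to 8.74 and 7.87 FPKM in ferret and to 358 and 347 FPKM in mouse astrocytes, Cx3cr1 was listed at 0 in both ferret libraries, and Itgam and P2ry12 in 1 of them each. The 10 meningeal fibroblast markers summed to 205 and 184 FPKM in ferret and to 1959 and 1903 FPKM in mouse astrocytes. The oligodendrocyte lineage markers summed to 169 and 188 FPKM in ferret, over 9 of 10 genes, and to 176 and 186 FPKM in mouse astrocytes. The neuronal markers summed to 28.3 and 28.3 FPKM over 8 of 10 genes in ferret astrocytes. In mouse astrocytes they summed to 156 and 161 FPKM over 9 of 10 genes, where the sum also holds Stmn2. Their medians over these genes went the other way, at 1.23 and 0.971 FPKM in ferret and 0.340 and 0.296 FPKM in mouse astrocytes. The neuronal sums thus do not describe most of these markers. Of the markers that reached a mean of 1 FPKM in both species, 2 of 2 microglial, 6 of 7 meningeal and 6 of 10 astrocyte markers were called lower in ferret astrocytes, and 1 meningeal, 1 astrocyte, 2 of 6 oligodendrocyte lineage and 1 of 2 neuronal markers were called higher. The part of these other cells in the differences of the 9 genes was not tested. Species, genome annotation and culture cannot be told apart in this design, and for a single gene, the smallest two-sided p of an exact permutation test between 2 and 2 libraries is 0.333.

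Akt1 encodes a kinase that relays growth factor signals from PI3 kinase to the TSC complex. It had 87.6 and 95.3 FPKM in ferret replicates 1 and 2 and 71.1 and 71.1 FPKM in mouse replicates 1 and 2. Both ferret values were above the mouse values. The log2 difference was 0.36 with SE 0.062 (limma adjusted p = 3.46e-04), which is 0.71 above the median of all genes. In the mouse, the gene spans bases 112653821 to 112674884 of chromosome 12 of GRCm38 (minus strand) in 16 exonic regions. Akt1 was the most abundant of the 9 genes in ferret astrocytes, and the second most abundant in mouse astrocytes.

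Its paralog Akt2 differed in the opposite direction. Akt2, which is best known for its part in insulin-stimulated glucose uptake, had 29.3 and 30.8 FPKM in ferret and 54.5 and 56.4 FPKM in mouse astrocytes (log2 difference -0.86 with SE 0.060, limma adjusted p = 3.35e-07). The ratio of Akt1 to Akt2 was 2.99 and 3.10 in the ferret and 1.30 and 1.26 in the mouse libraries. Akt1 was the more abundant of the pair in both species. Such ratios are taken within a library and do not depend on scaling between libraries, but they do depend on the gene models of each species.

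Tsc1 encodes hamartin, which stabilizes the TSC complex. It had 8.13 and 9.03 FPKM in ferret replicates 1 and 2 and 4.67 and 4.58 FPKM in mouse replicates 1 and 2. The ferret values were the higher ones, and the log2 difference was 0.77 with SE 0.077 (limma adjusted p = 6.13e-06), or 1.12 above the median of all genes. This was the largest difference among the 5 genes that were higher in ferret astrocytes. Relative to all genes, 17.2% of the genes tested had a difference as high. The mouse locus spans bases 28641228 to 28691167 of chromosome 2 (plus strand) in 22 exonic regions.

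Tsc2 encodes tuberin, the part of the complex that acts on Rheb as a GTPase-activating protein. It had 5.02 and 5.54 FPKM in ferret replicates 1 and 2 and 17.9 and 16.5 FPKM in mouse replicates 1 and 2. Here the mouse values were the higher ones, by 3.25-fold in the mean, and the log2 difference was -1.53 with SE 0.077 (limma adjusted p = 3.05e-08), or -1.18 relative to the median of all genes. On GRCm38 the gene spans bases 24595816 to 24632630 of chromosome 17 (minus strand) in 40 exonic regions. It shares 693 exonic bases with Pkd1 on the opposite strand, which had 16.5 and 15.9 FPKM in the mouse libraries. The library kit keeps the strand of the RNA. Whether the counting used it is not given in the sources used here, so that reads of the shared stretch may belong to either gene.

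The ratio of Tsc2 to Tsc1 FPKM was 0.617 and 0.614 in the ferret and 3.83 and 3.60 in the mouse libraries. Tsc1 was thus the more abundant transcript of the pair in ferret astrocytes and Tsc2 in mouse astrocytes. Tbc1d7, the other subunit of the TSC complex, had 20.6 and 20.5 FPKM in ferret and 14.0 and 16.5 FPKM in mouse astrocytes (log2 difference 0.41, limma adjusted p = 8.07e-04). It moved in the direction of Tsc1.

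Rheb, the direct activator of complex 1, differed most of the 9 genes. It had 18.5 and 16.7 FPKM in ferret replicates 1 and 2 and 75.6 and 75.4 FPKM in mouse replicates 1 and 2. The mouse mean was 4.29-fold higher, and the log2 difference was -2.04 with SE 0.065 (limma adjusted p = 1.37e-09), or -1.69 relative to the median of all genes. Of all genes tested, 10.2% had a difference as low. In the mouse, the gene spans bases 24802823 to 24842624 of chromosome 5 (minus strand) in 8 exonic regions and 552 coding bases without the stop codon.

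Relative to Mtor, Rheb stood at 1.24 and 1.05 in the ferret and at 7.90 and 8.43 in the mouse libraries, as a ratio of FPKM. The ratio of Rheb to Tsc2, the activator over its inhibitor, differed less, with 3.68 and 3.01 in ferret and 4.23 and 4.58 in mouse astrocytes, since both genes were lower in ferret astrocytes. Rhebl1, a close relative of Rheb, was low in both species, at 0.137 and 0.252 FPKM in ferret and 2.02 and 1.66 FPKM in mouse astrocytes. It reached the limit of 1 FPKM for testing through the mouse libraries alone. Its log2 difference was -1.25, or -2.74 with a pseudocount of 0.1 and -0.97 after quantile normalization.

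Mtor encodes the kinase of both complexes. It had 14.9 and 16.0 FPKM in ferret replicates 1 and 2 and 9.57 and 8.95 FPKM in mouse replicates 1 and 2. Both ferret values were above both mouse values, by 1.67-fold in the mean, and the log2 difference was 0.68 with SE 0.070 (limma adjusted p = 7.66e-06), or 1.03 above the median of all genes. The mouse locus spans bases 148448611 to 148557683 of chromosome 4 (plus strand) in 56 exonic regions.

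Rptor encodes Raptor, which brings the substrates of complex 1 to the kinase. It had 11.2 and 12.1 FPKM in ferret replicates 1 and 2 and 8.11 and 7.37 FPKM in mouse replicates 1 and 2. The ferret values were again the higher ones, and the log2 difference was 0.53 with SE 0.076 (limma adjusted p = 9.22e-05), or 0.88 above the median of all genes. On GRCm38 the gene spans bases 119602905 to 119899576 of chromosome 11 (plus strand) in 34 exonic regions, of which 84 bases are shared with the antisense gene Rptoros, at 0.0285 and 0.0238 FPKM in the mouse libraries. The ratio of Rptor to Mtor was close in the species, with 0.747 and 0.755 in ferret and 0.848 and 0.823 in mouse astrocytes.

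Rictor encodes the defining subunit of complex 2. It had 5.57 and 5.54 FPKM in ferret replicates 1 and 2 and 14.3 and 13.0 FPKM in mouse replicates 1 and 2. The mouse mean was 2.46-fold higher, opposite to Mtor and Rptor, and the log2 difference was -1.16 with SE 0.073 (limma adjusted p = 1.74e-07), or -0.81 relative to the median of all genes. In the mouse, the gene spans bases 6708379 to 6800401 of chromosome 15 (plus strand) in 38 exonic regions. The ratio of Rictor to Rptor was 0.499 and 0.460 in the ferret and 1.77 and 1.77 in the mouse libraries. Rptor was thus the more abundant transcript of the pair in ferret astrocytes, and Rictor in mouse astrocytes.

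Among the outputs of complex 1, Rps6kb1 encodes the S6 kinase that promotes translation and ribosome production. It had 16.4 and 17.7 FPKM in ferret replicates 1 and 2 and 13.8 and 12.8 FPKM in mouse replicates 1 and 2. The groups did not overlap, but with FPKM as deposited this was the smallest of the 9 differences, with a log2 difference of 0.33 with SE 0.070 (limma adjusted p = 0.00132), or 0.68 above the median of all genes. The mouse locus spans bases 86498871 to 86544805 of chromosome 11 (minus strand) in 19 exonic regions, and shares 155 exonic bases with Rnft1 on the opposite strand, at 27.5 and 28.6 FPKM in the mouse libraries. Rps6kb2, the paralog, had 11.5 and 12.5 FPKM in ferret and 20.6 and 14.3 FPKM in mouse astrocytes, with mouse duplicates that lay far apart. Its log2 difference of -0.49 with SE 0.135 (limma adjusted p = 0.00651) did not hold. It was -0.13, -0.13 and -0.09 under the 3 scalings (limma adjusted p = 0.482, 0.473 and 0.583), and -0.24 without mouse replicate 1 (limma adjusted p = 0.0647) against -0.74 without mouse replicate 2. The adjusted p was also lost without either ferret library (0.109 and 0.0602) and with no filter on low values (0.113).

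Eif4ebp1 encodes the repressor that holds the cap-binding factor eIF4E until complex 1 phosphorylates it. It had 20.8 and 21.5 FPKM in ferret replicates 1 and 2 and 37.4 and 37.7 FPKM in mouse replicates 1 and 2. The mouse values were the higher ones, by 1.77-fold in the mean, and the log2 difference was -0.80 with SE 0.059 (limma adjusted p = 5.79e-07), or -0.45 relative to the median of all genes. On GRCm38 the gene spans bases 27260329 to 27276674 of chromosome 8 (plus strand) in 6 exonic regions. A processed pseudogene, Gm14143, matches its coding sequence at 93.22% identity and was listed at 0 in both mouse libraries. None of the other 8 genes had an annotated mouse transcript of another gene at 90% identity or more over 200 bases or more.

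The related repressor Eif4ebp2, which is the main eIF4E-binding protein of the brain, differed in the opposite direction. It had 37.7 and 39 FPKM in ferret and 17.3 and 18.2 FPKM in mouse astrocytes (log2 difference 1.07 with SE 0.061, limma adjusted p = 8.68e-08). Eif4ebp2 was therefore the more abundant repressor transcript in ferret astrocytes and Eif4ebp1 in mouse astrocytes. The ratio of Eif4ebp1 to Eif4ebp2 was 0.552 and 0.553 in the ferret and 2.16 and 2.07 in the mouse libraries. Eif4ebp1 stood at 1.27 and 1.22 per Rps6kb1 in ferret and at 2.70 and 2.94 in mouse astrocytes, again as a ratio of FPKM.

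**Figure D3:**
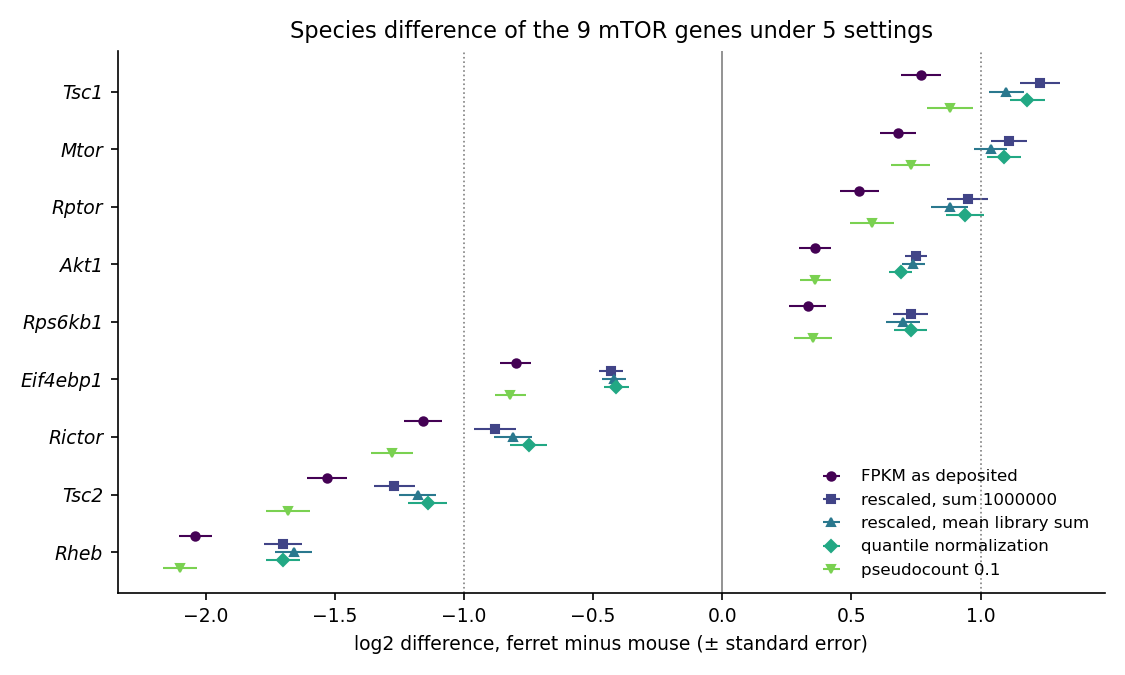
Log2 difference, ferret minus mouse, of the 9 genes with its standard error, for FPKM as deposited, 3 scalings between libraries and a pseudocount of 0.1, with dotted lines at the limits of -1 and 1. No gene crosses 0, and Mtor, Tsc1 and Rictor cross a limit with the scaling.

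The order of the levels changed with the species. In ferret astrocytes it ran from Akt1 (91.5 ± 5.44 FPKM, SD, n = 2) through Eif4ebp1 (21.2 ± 0.524), Rheb (17.6 ± 1.26), Rps6kb1 (17.1 ± 0.878), Mtor (15.5 ± 0.727), Rptor (11.6 ± 0.630), Tsc1 (8.58 ± 0.640) and Rictor (5.56 ± 0.0193) to Tsc2 (5.28 ± 0.373). The values of Rheb and Rps6kb1 overlapped in the ferret libraries, so that these neighbours did not differ beyond their spread. Those of Rictor and Tsc2 did not overlap, but only just. The lower Rictor value and the higher Tsc2 value both rounded to 5.54 FPKM. In mouse astrocytes the order ran from Rheb (75.5 ± 0.119 FPKM, SD, n = 2) through Akt1 (71.1 ± 0.00841), Eif4ebp1 (37.5 ± 0.214), Tsc2 (17.2 ± 1.00), Rictor (13.7 ± 0.917), Rps6kb1 (13.3 ± 0.701), Mtor (9.26 ± 0.435) and Rptor (7.74 ± 0.525) to Tsc1 (4.62 ± 0.0664). The values of Rictor and Rps6kb1 overlapped there. Tsc2 moved from rank 9 in ferret to rank 4 in mouse astrocytes and Rheb from rank 3 to rank 1. FPKM is already divided by exon length, but a gene model that lacks exons or untranslated regions in one species shifts all its values, and ferret gene models were not analysed here.

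The genes around these 9 were taken from 7 lists with 100 genes, of which 87 symbols were shared by both species and 86 reached a mean FPKM of 1 in the ferret or the mouse, the limit for testing. Deptor, an inhibitor that binds mTOR, did not pass, with 0.0643 and 0.0880 FPKM in ferret and 0.438 and 0.519 FPKM in mouse astrocytes. The other 13 genes were not analysed here, Eif4ebp3 among them. At an adjusted p under 0.05 by limma, 29 of the 86 genes were higher and 44 lower in ferret astrocytes, and 13 did not pass. Called by size as well were 8 higher and 24 lower, in all 37.2% of these genes against 43.2% of all genes tested. The median log2 difference was -0.24, near the -0.35 of all genes. Of the genes called lower, Prr5, Prr5l, Rhebl1 and Chac1 reached the limit through the mouse alone, where they were high, so that a difference was built into their selection. Over the 82 genes at the limit in both species, 8 were called higher and 20 lower, in all 34.1% against 36.3% of the 8583 such genes of the whole table, and the median was -0.10 against -0.29. Rescaled to a sum of 1000000, 43 of the 86 genes were higher and 34 lower at the same limit of adjusted p, and 17 were called higher and 17 lower, so that the balance between the directions rests on the scaling.

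**Figure D4:**
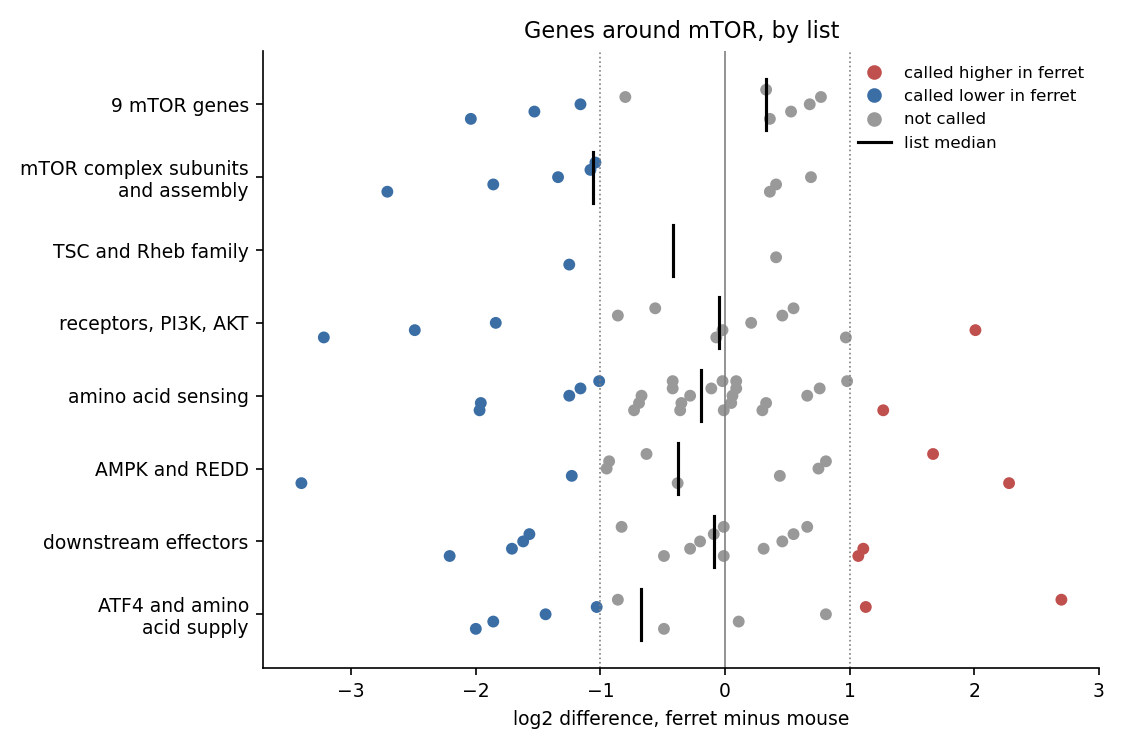
Log2 difference of FPKM + 1, ferret minus mouse, of the 9 genes and of the 86 tested genes of 7 lists, a point per gene, red for a call higher in ferret, blue for a call lower in ferret, grey for no call and a black bar at the list median. The medians run from -1.06 for the mTOR complex list, which holds 2 genes that were tested through the mouse alone, to 0.33 for the 9 genes.

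Of the other subunits and assembly factors of the mTOR complexes, 8 were tested, and 6 of them reached a mean of 1 FPKM in both species. Of these 6 genes, 3 were higher in ferret astrocytes with no call and 3 were called lower, against 25.8% called lower of all genes at that limit in both species, and the median log2 difference was -0.34. Mapkap1, which encodes the complex 2 subunit SIN1, had 15.9 and 16.5 FPKM in ferret and 37.0 and 33.9 FPKM in mouse astrocytes, a log2 difference of -1.08. Akt1s1, which encodes the complex 1 inhibitor PRAS40, had 12.5 and 15.9 FPKM in ferret and 36.3 and 38.5 FPKM in mouse astrocytes, a log2 difference of -1.34. Tti1, of the assembly complex for mTOR and related kinases, had 2.65 and 2.65 FPKM in ferret and 6.41 and 6.56 FPKM in mouse astrocytes, a log2 difference of -1.04. Mapkap1 and Tti1 were not called under any of the 3 scalings, and Akt1s1 under 1 of them. The other 2 genes, both of complex 2, were tested through the mouse alone. Prr5, which encodes Protor-1, had 0.272 and 0.262 FPKM in ferret and 6.81 and 7.79 FPKM in mouse astrocytes, a log2 difference of -2.71, or -4.33 with a pseudocount of 0.1. Its relative Prr5l had 0.634 and 0.785 FPKM in ferret and 5.09 and 5.28 FPKM in mouse astrocytes, a log2 difference of -1.86, or -2.71 with that pseudocount. With these genes included, the median of the list was -1.06.

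Of the receptor, PI3 kinase and AKT genes, 5 of 12 were higher and 5 lower, with 1 called higher and 3 called lower. Over all genes tested, 32.4% were higher and 56.2% lower. In all, 33.3% of this list were called, against 43.2% of all genes tested. The receptors lay on both sides. Igf1r, the receptor of the insulin-like growth factors, had 34.2 and 36.1 FPKM in ferret and 8.39 and 7.63 FPKM in mouse astrocytes (log2 difference 2.01, limma adjusted p = 2.35e-09). Insr, the insulin receptor, had 1.45 and 1.46 FPKM in ferret and 7.88 and 7.74 FPKM in mouse astrocytes (log2 difference -1.84, limma adjusted p = 6.04e-09). The ratio of Igf1r to Insr was thus 23.6 and 24.6 in ferret and 1.06 and 0.985 in mouse astrocytes. Egfr, a receptor for the growth factor in the serum-free medium, had 2.97 and 2.50 FPKM in ferret and 19.6 and 20.3 FPKM in mouse astrocytes (log2 difference -2.49, limma adjusted p = 1.55e-09). Grb10, an adaptor that restrains insulin receptor signalling and is stabilized by complex 1, had 5.64 and 6.32 FPKM in ferret and 65.2 and 63.1 FPKM in mouse astrocytes (log2 difference -3.22, limma adjusted p = 1.21e-10).

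The amino acid sensing list, which holds the Rag GTPases, Ragulator, the GATOR complexes and the nutrient sensors, had 6 higher and 13 lower genes of 26, and 1 called higher and 5 called lower. After rescaling to a sum of 1000000 these became 13 higher and 8 lower genes, so the list as a whole had no direction that held. As deposited, 32.4% of all genes tested were higher and 56.2% lower. The share called in either direction was 23.1% of this list and 43.2% of all genes tested. The Ragulator subunits Lamtor4 and Lamtor5 lay far apart. Lamtor4 had 85.8 and 85.4 FPKM in ferret and 36.2 and 33.7 FPKM in mouse astrocytes, a log2 difference of 1.27, and Lamtor5 had 16.8 and 16.9 FPKM against 67.6 and 69.6 FPKM, a log2 difference of -1.97. Sec13, which serves GATOR2 as well as protein export from the endoplasmic reticulum, had 21.5 and 22.6 FPKM in ferret and 87.6 and 89.4 FPKM in mouse astrocytes, a log2 difference of -1.96. Nprl3 of GATOR1 (log2 difference -1.25) and the sestrins Sesn1 (-1.16) and Sesn2 (-1.01) were called lower too, but under none of the 3 scalings. The call of Sesn2 was also lost without ferret replicate 1, at -0.95, and without mouse replicate 2, just short of the limit.

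AMPK, the energy sensor that restrains complex 1, differed by subunit. Prkaa1, a catalytic subunit, had 38.8 and 39.8 FPKM in ferret and 11.6 and 11.7 FPKM in mouse astrocytes (log2 difference 1.67, limma adjusted p = 3.00e-09). Prkab2, a scaffold subunit, had 36.6 and 35.7 FPKM in ferret and 6.39 and 6.92 FPKM in mouse astrocytes (log2 difference 2.28, limma adjusted p = 7.36e-10). Prkag2, a nucleotide-binding subunit, had 26.2 and 25.9 FPKM in ferret and 62.4 and 62.6 FPKM in mouse astrocytes, a log2 difference of -1.23, and was called under none of the 3 scalings. Ddit4l, which encodes an inhibitor of complex 1 of the REDD family, had 1.07 and 1.58 FPKM in ferret and 21.2 and 25.7 FPKM in mouse astrocytes (log2 difference -3.40, limma adjusted p = 2.60e-09). In the whole AMPK and REDD list, 5 of 11 genes were higher and 6 lower, against 32.4% and 56.2% of all genes tested. The share called in either direction was 36.4% of this list and 43.2% of all genes tested.

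Of 17 downstream effectors, 6 were higher and 8 lower, with 2 called higher and 4 called lower. Among all genes tested, 32.4% were higher and 56.2% lower. The share called in either direction was 35.3% of this list and 43.2% of all genes tested. Besides Eif4ebp2, Eif4b, a translation initiation factor that S6 kinase phosphorylates, was called higher, with 91.5 and 100 FPKM in ferret and 43.7 and 44.3 FPKM in mouse astrocytes, a log2 difference of 1.11. Sgk1, a kinase activated by complex 2, had 12.7 and 13.0 FPKM in ferret and 63.8 and 62.5 FPKM in mouse astrocytes (log2 difference -2.21, limma adjusted p = 4.35e-10). Also called lower were Lpin1 (log2 difference -1.71), a regulator of lipid synthesis, Tfeb (-1.62), which drives lysosomal genes, and Maf1 (-1.57), a repressor of RNA polymerase III. After rescaling to a sum of 1000000 the list had 10 higher and 5 lower genes.

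ATF4 target and amino acid supply genes, which respond to complex 1 among other inputs, also lay on both sides. Of 10 genes, 3 were higher and 6 lower, against 32.4% and 56.2% of all genes tested. With 2 called higher and 4 called lower, the share called was 60.0%, above the 43.2% of all genes tested. Over the 9 genes at the limit in both species it was 55.6%, against 36.3% of such genes of the whole table. Slc7a11, the cystine transporter, had 95.3 and 104 FPKM in ferret and 15.2 and 13.7 FPKM in mouse astrocytes (log2 difference 2.70, limma adjusted p = 3.99e-10). Slc1a5, a glutamine transporter, had 8.52 and 8.20 FPKM in ferret and 3.35 and 3.20 FPKM in mouse astrocytes, a log2 difference of 1.13. Lower in ferret astrocytes were Psat1 of serine synthesis, with 27.8 and 25.6 FPKM in ferret and 108 and 112 FPKM in mouse astrocytes, a log2 difference of -2.00, and Slc3a2, the heavy chain of amino acid exchangers, with 59.5 and 67.3 FPKM against 224 and 239 FPKM, a log2 difference of -1.86. Mthfd2 (log2 difference -1.03), of mitochondrial folate metabolism, was called lower as well. Chac1, which degrades glutathione and was tested through the mouse alone, had 0.625 and 0.720 FPKM in ferret and 3.91 and 3.18 FPKM in mouse astrocytes. The call of Mthfd2 was lost under each of the 3 scalings, without ferret replicate 1, at -0.92, and without mouse replicate 1, at -0.94.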

How the data were processed

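RNA-seq was performed by the authors on polyA-selected, stranded libraries of cultured ferret (2) and ICR mouse (2) astrocytes. Per the methods and the submitters' processing notes, reads were aligned with STAR 2.7.0f to the Ensembl genome of each species (GRCm38 for the mouse), and the authors computed the deposited FPKM values, 1 per gene and library, with Cufflinks 2.2.1. FPKM holds no read counts, so the depth is unknown from the deposited values and no counting intervals are given. The read counts in a supplement to the study were not used here. Symbols were matched in upper case, and for symbols with several values (7 in the ferret, 13 in the mouse) the value of highest mean in the species was kept. None of the 9 genes was among them. Differences were tested with limma 3.58.1 (R 4.3.3, empirical Bayes with a trend) on log2(FPKM + 1) for the 10204 genes whose mean reached 1 FPKM in either species, with Benjamini-Hochberg adjustment over all of them. The added 1 shrinks the differences of weakly expressed genes. The fit was tested on simulated data. Mouse coordinates and overlaps are from GENCODE M21 on GRCm38, an annotation release other than the authors'. Copies were searched with BLAST. The 9 genes and the lists were chosen with earlier results of these data known. Named are the 9 genes, their paralogs, and from each list all genes called in a direction when these were at most 5, otherwise the 3 with the largest difference. A result that this rule would name is not reported here. Prkaa2, Prkab1, Tbc1d7, Pkd1, Rnft1, Rptoros, Gm14143 and Deptor are named outside this rule. Alternatives concerned the pseudocount, the filter, the scaling, the replicate block, symbols with several values, the trend and each library left out.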

Additional observations from a re-analysis of the deposited data

How the results depend on the processing

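Each of the 9 genes kept its direction at an adjusted p under 0.05 by limma under the 3 scalings between libraries. Both rescalings raised ferret values relative to mouse values, so only genes lower in ferret astrocytes could have turned under them. In the alternatives other than scaling no direction could change, since the ferret and mouse values of these genes did not overlap. Scaling between libraries moved the calls. With FPKM rescaled to a sum of 1000000, rescaled to the mean library sum, or quantile normalized, 2, 2 and 2 of the 9 genes were called higher in ferret astrocytes (Mtor and Tsc1) against 0 as deposited, and 17, 17 and 16 of the 86 other pathway genes against 8. Of those 86 genes, 15 were called lower after quantile normalization against 24. Over all genes, 1336 were called higher as deposited, 2197 after rescaling to a sum of 1000000 and 2080 after quantile normalization. In these 3 scalings 12, 12 and 14 of the 86 genes changed the sign of their difference, none of them a called gene. The cause was not tested. With a single library left out, 8 to 9 of the 86 genes were called higher and 23 to 25 lower, and 0 and 3 of the 9 genes as reported. Over all alternatives the log2 difference ran from -2.11 to -1.66 for Rheb, from -1.68 to -1.14 for Tsc2 and from 0.64 to 1.11 for Mtor. The size of the adjusted p was less stable. With no filter on low values, the limma adjusted p was 2.61e-04 against 1.37e-09 for Rheb and 0.00217 against 7.66e-06 for Mtor. The replicate numbers come from the labels alone, and the deviations of same-numbered libraries correlated at 0.010 across genes. Whether same-numbered libraries shared a day of culture or a run is not given in the sources used here, and this correlation cannot tell. With the replicate number as a block, 1342 genes were called higher and 3072 lower, against 1336 and 3069 without the pairing, and 0 and 3 of the 9 genes, as reported. Taking the first or the summed value of a symbol could not change the order of the levels, since each of the 9 genes had a single value per library. Read counts were not used here, so no counting limit is given for genes listed at 0.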

Other observations

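The ratio between related genes or subunits of a complex differed between the species for several pairs around mTOR. These pairs were chosen after their values were seen, and the ratios are descriptions within each library. Lamtor4 stood at 5.12 and 5.06 per Lamtor5 in the ferret libraries and at 0.535 and 0.485 in the mouse libraries. The AMPK scaffold Prkab2 stood at 1.59 and 1.54 per Prkab1 in ferret and at 0.501 and 0.495 in mouse astrocytes. Prkaa1 exceeded Prkaa2, the other catalytic subunit, in both species, but by 20.0 and 19.4 times in ferret and 3.18 and 3.21 times in mouse astrocytes. Rps6kb1 stood at 1.43 and 1.42 per Rps6kb2 in ferret and at 0.670 and 0.898 in mouse astrocytes, where the spread between duplicates was wide.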
